A study of Mus musculus with 2 samples.

Results

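The nuclei described here came from mouse heart and were chosen by a rule for cardiac fibroblasts (CFs). They carried RNA of Rgs17, Fbn2, Slit2, Eya2, Inmt, Pcdh9 or Col6a6, 7 genes that are called the Rgs17 panel here. They numbered 1887 of the 18164 nuclei of both libraries, 1142 out of 10197 for control and 745 out of 7967 for PD-1 inhibitor. A nucleus was a member when mitochondrial (mt-) genes gave at most 20% of its UMIs (unique molecular identifiers, each a counted RNA molecule), when at least 4 UMIs came from a fibroblast panel (Pdgfra, Col1a1, Col1a2, Col3a1, Dcn, Abca8a, Bicc1), and when the UMIs of the Rgs17 panel summed to at least 1 and to more than those of the Cilp Pi16 panel (Cilp, Myoc, Cd248, Pi16, Islr, Clec3b, Mfap4, Mfap5), 8 genes of another fibroblast class. Wif1 and Chad together had to stay under 2 UMIs, and Pecam1, Flt1 and Ptprb together under 3. The members were thus chosen by measured values of these same nuclei, so the levels of the panel genes, and every difference between members and other nuclei, are given as descriptions.

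The hearts came from male C57BL/6 mice that were 8 weeks old when the injections began. The mice of the PD-1 inhibitor group received an antibody against mouse PD-1 at 5 mg/kg into the peritoneum on days 1 and 14 of a 28-day cycle, and the control mice received PBS at the same times. Nuclei were prepared with a single-nucleus kit, and 1 library was made per condition, from a number of hearts that the sources used here do not give. With 1 library per condition no difference between the libraries has a replicate check, no p-value is given, and the treatment cannot be told apart from anything else that differed between the libraries. The intervals are 95% intervals, exact binomial (Clopper-Pearson) for shares, exact Poisson for sums and exact conditional binomial for ratios, and they cover counting error only.

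Fibroblasts make and turn over the collagens, microfibrils and proteoglycans between the muscle fibres of the heart, and they are found beside the muscle, around vessels, in the valves and at the surface. PD-1 is an inhibitory receptor that is best known from T cells, and antibodies against it release T cells from that restraint. Of the Rgs17 panel, Rgs17 codes for a regulator that shortens G protein signals, Fbn2 for fibrillin-2, a microfibril protein, Slit2 for a secreted ligand of the Robo guidance receptors, and Col6a6 for a chain of collagen VI. Pcdh9 codes for a protocadherin of the cell surface that glial cells also use, Eya2 for a transcriptional coactivator, and Inmt for a methyltransferase of small amines.

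The control library held 13177525 UMIs and the PD-1 inhibitor library 10875248. No nucleus in the files had fewer than 500 UMIs. The limit on mt- genes kept 10114 and 7952 nuclei, with a median of 1016.5 and 1065.5 UMIs. The libraries shared 48 barcodes, and none of these was a member in both.

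The median depth of members was 1122.5 UMIs for control and 1118 for PD-1 inhibitor members, and they held 1527648 and 1069708 UMIs in all. Mt- genes gave 0.967% and 1.17% of these UMIs, against 2.04% and 2.06% in the other nuclei that passed the fibroblast, Wif1 Chad and endothelial limits (other fibroblast-panel nuclei below). The nuclear RNA Malat1 gave 6.15% and 6.21%, against 5.08% and 4.76% there. A doublet caller marked 70 control members (6.13%) and 22 PD-1 inhibitor members (2.95%).

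Summed over all members, fibroblast genes that the rule did not use stood higher than in all other nuclei. Such sums do not show that each member was a fibroblast nucleus. In the clustering given below, 197 control and 156 PD-1 inhibitor members lay outside the clusters led by Rgs17 and by Cilp. Heart muscle markers stood at 13090 and 18708 CPM in them. Abca8b, a lipid transporter of fibroblasts, stood at 659 and 652 CPM (UMIs of the gene per 1000000 UMIs of the group) in control and PD-1 inhibitor members, against 147 and 173 CPM in all other nuclei. Htra3, a secreted protease, stood at 1110 and 1127 CPM against 297 and 356, and Scn7a, a sodium channel of fibroblasts and glia, at 659 and 595 against 138 and 145. Among all genes outside the rule with at least 50 UMIs in members, 393 of 8840 (4.45%) were over 2-fold higher than in all other nuclei in both libraries and 317 (3.59%) were over 2-fold lower. The markers of heart muscle cells summed to 6166 and 9266 CPM in members, against 19190 and 19142 CPM in all other nuclei, and those of macrophages to 676 and 574 against 2367 and 2574. The endothelial, mural, T cell and adipocyte lists were lower in members as well. The mesothelial list was higher, at 1738 and 2705 CPM in members against 1503 and 2130. The B cell list was slightly higher, at 1233 and 803 CPM against 1131 and 785. The glial list was higher too, at 3833 and 2983 CPM in members against 448 and 413, mostly through Pcdh9 of the rule and through Scn7a. Of the markers that define glia, Sox10 had 6 and 1 UMIs in members, while Cdh19 stood at 130 and 168 CPM against 32.4 and 23.6. The part of glial RNA in the members' values was not tested.

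Each panel gene was counted in a minority of members except Pcdh9. Pcdh9 gave 64.3% of the panel's UMIs in control members and 55.8% in PD-1 inhibitor members, and 27.7% and 25.9% of members had it as their sole panel gene. At least 3 of the 7 genes were counted in 26.4% and 28.2% of members, and all 7 in no member, which allows a share of up to 0.263% and 0.403%.

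Rgs17 had a UMI in 23.0% of control members (20.6% to 25.6%) and in 18.5% of PD-1 inhibitor members (15.8% to 21.5%). In nuclei with macrophage markers, which should lack the gene and show the background of free RNA, the shares were 0.347% and 0.686%, at median depths of 976 and 1008.5 UMIs. These nuclei had at least 4 UMIs of the macrophage markers and under 4 of the fibroblast panel. Pcdh9 had a UMI in 82.7% and 76.1% of members, against 6.45% and 3.73% of those nuclei. After thinning every nucleus to 500 UMIs, the shares with Pcdh9 were 66.4% and 55.7% in members, against 4.09% and 1.96%, and the shares with Rgs17 were 12.4% and 9.93% in members, against 0.277% and 0.196%. Dcn, the proteoglycan decorin, had a UMI in 93.2% and 94.9% of members but also in 27.9% and 34.7% of nuclei with macrophage markers. Dcn is in the fibroblast panel, so the choice of nuclei held its share up in members and down in nuclei with macrophage markers.

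**Figure D1:**
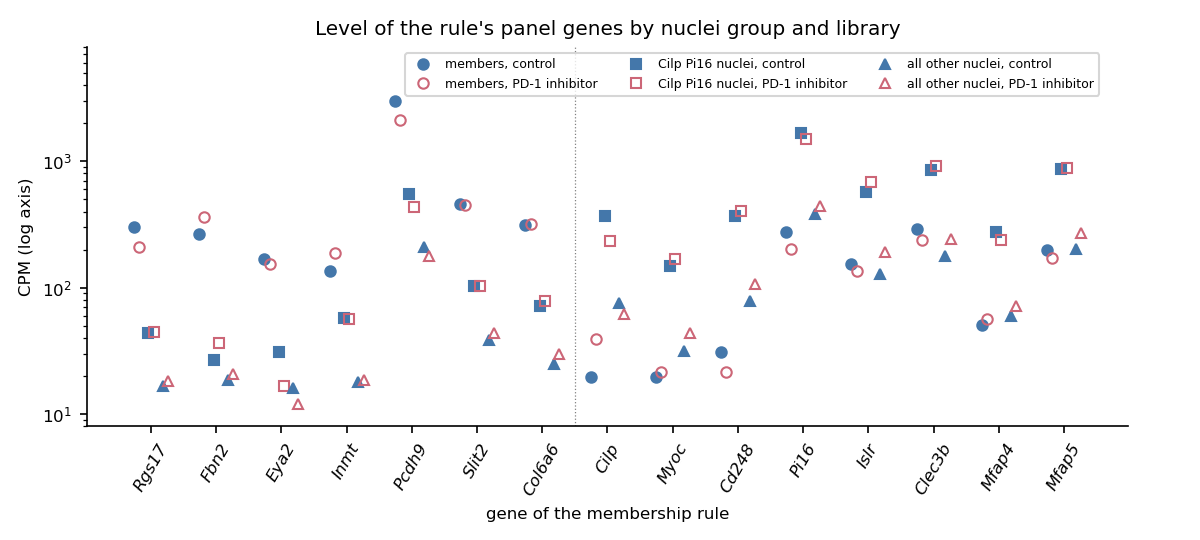
Level of the genes of the Rgs17 panel (left of the dotted line) and of the Cilp Pi16 panel (right) in members, in Cilp Pi16 nuclei and in all other nuclei, in CPM on a log axis, with filled points for the control library and open points for the PD-1 inhibitor library. Each point is 1 sum over nuclei without an error bar, and the panels chose the groups, so the gap between members and Cilp Pi16 nuclei is set by the rule.

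In members, the panel genes differed in level between the libraries, and not all in the same direction. Rgs17 stood at 302 CPM in control members and 211 CPM in PD-1 inhibitor members, a log2 ratio of PD-1 inhibitor over control of -0.51 (-0.75 to -0.28). Pcdh9 went from 2969 to 2126 CPM (-0.48, -0.56 to -0.41). Fbn2 went the other way, from 264 to 364 CPM (0.46, 0.26 to 0.67), as did Inmt, from 136 to 188 CPM (0.46, 0.18 to 0.75).

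Eya2 stood at 169 and 154 CPM, Slit2 at 462 and 450 CPM and Col6a6 at 314 and 318 CPM, and the intervals of these ratios held 0. The rule reads the panel genes, so the same genes were also summed over the whole libraries, with no choice of nuclei. There Pcdh9 went from 534 to 371 CPM (-0.52, -0.58 to -0.47), Rgs17 from 50.2 to 37.3 CPM (-0.43, -0.61 to -0.25) and Fbn2 from 47.5 to 54.7 CPM (0.20, 0.04 to 0.37). Slit2 gave -0.07 (-0.20 to 0.05) and Col6a6 -0.01 (-0.17 to 0.14). Eya2 and Inmt differed there from their values in members. Eya2 was lower, at -0.39 (-0.61 to -0.17), and Inmt gave 0.15 (-0.05 to 0.36), an interval that holds 0.

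Members made up a smaller share of the PD-1 inhibitor library. They were 11.3% of control nuclei (10.7% to 11.9%) and 9.37% of PD-1 inhibitor nuclei (8.74% to 10.03%), a ratio of 0.830 (0.756 to 0.911). Among the 3398 control and 2961 PD-1 inhibitor nuclei that passed the fibroblast, Wif1 Chad and endothelial limits, 33.6% (32.0% to 35.2%) and 25.2% (23.6% to 26.8%) were members, a ratio of 0.749 (0.682 to 0.822).

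Nuclei in which the Cilp Pi16 panel was ahead went the other way, from 1404 (13.9%) to 1428 (18.0%), a ratio of 1.29 (1.201 to 1.39). Dcn, which is in the fibroblast panel, rose by 0.57 on the log2 scale over the whole libraries (0.55 to 0.59), and the fibroblast-panel nuclei were 33.6% of control and 37.2% of PD-1 inhibitor nuclei. The part of Dcn and Pcdh9 levels in the shares was not tested beyond the alternatives given next. Without Pcdh9 in the rule, members were 5.80% and 5.22% of nuclei, a ratio of 0.899 with an interval from 0.791 to 1.02, and among fibroblast-panel nuclei the ratio was 0.811 (0.714 to 0.922). Thinned to 500 UMIs, the ratios were 0.877 (0.787 to 0.975) and 0.778 (0.699 to 0.866).

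**Figure D2:**
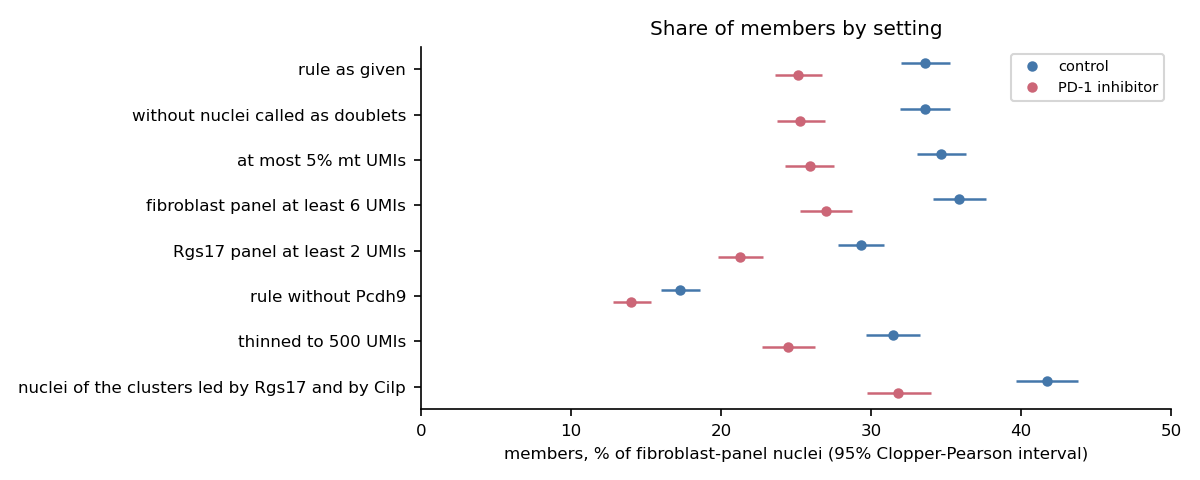
Members as a percentage of fibroblast-panel nuclei in the control and the PD-1 inhibitor library, with 95% Clopper-Pearson intervals, under the rule as given and under each other setting that changes the choice of nuclei. The control share is the higher of the pair in every row, from 33.6% against 25.2% as given to 17.3% against 14.0% without Pcdh9.

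Many members lay near the edge of the rule. The Rgs17 panel led by 1 UMI in 280 control and 215 PD-1 inhibitor members, and it was tied with the Cilp Pi16 panel, just outside, in 203 and 169 nuclei. The fibroblast panel stood at its minimum of 4 in 46 and 27 members, and at 3, with all else met, in 64 and 42 nuclei. Neither panel was counted in 649 and 619 fibroblast-panel nuclei. No UMI of the Cilp Pi16 panel was counted in 502 (44.0%) and 338 (45.4%) members.

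The nuclei were also clustered on all variable genes without the rule. The cluster led by Rgs17, Fbn2, Inmt, Nkain2 and Eya2 held 838 (73.4%) of control members and 532 (71.4%) of PD-1 inhibitor members, and members were 54.7% and 52.5% of it. The cluster led by Cilp, Myoc, Cd248 and Islr held 107 (9.37%) and 57 (7.65%). The remaining 197 and 156 members lay in other clusters, at a median of 1485 and 1998.5 UMIs, against 1064 and 1022.5 in the cluster led by Rgs17. In those remaining members the markers of heart muscle cells summed to 13090 and 18708 CPM and those of mesothelium, the covering of the heart, to 4290 and 5780 CPM. In members of the cluster led by Rgs17 the same sums were 4032 and 4317 CPM, and 901 and 1040 CPM.

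These markers thus differed between the libraries over all members. Their part in the differences below was not tested for all members, so each main comparison is also given for the nuclei of the clusters led by Rgs17 and by Cilp alone, a restriction chosen after the data had been seen. It kept 945 control and 589 PD-1 inhibitor members and 1321 and 1262 other fibroblast-panel nuclei. There the heart muscle markers stood at 3932 and 4218 CPM in members and the mesothelial markers at 914 and 1062 CPM.

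Against the other fibroblast-panel nuclei, 96 of 12167 genes (0.789%) were over 2-fold higher in members in both libraries and 224 (1.84%) were over 2-fold lower. The genes of the rule and the mt- genes are not in these counts. Among the 12 highest were Nkain2, Dchs2, Cxcl1, Kirrel3, Sgcd, Thsd7b, Slc7a11, Arhgap24, Prr16, Negr1 and Blnk. Kirrel3 had a UMI in 1.93% and 2.15% of members, against 1.89% and 1.67% of all other nuclei. Blnk had a UMI in 10.8% and 7.11% of members, but in 21.1% and 16.7% of nuclei with macrophage markers. The 96 genes were long, with a median genomic span of 124 kb against 27.2 kb over all genes tested. Against the Cilp Pi16 nuclei alone, 102 genes (0.838%) were higher and 171 (1.41%) lower.

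Nkain2, which codes for a membrane protein that interacts with the sodium pump, stood at 398 CPM in control members and 356 CPM in PD-1 inhibitor members, against 83.4 and 79.7 CPM in the other fibroblast-panel nuclei. The log2 ratio of members over the others was 2.25 among control and 2.16 among PD-1 inhibitor nuclei, and 2.20 and 2.15 within the clusters led by Rgs17 and by Cilp. It had a UMI in 13.5% and 14.0% of members, against 4.77% and 5.46% of Cilp Pi16 nuclei and 2.77% and 2.84% of nuclei with macrophage markers. Nkain2 is among the leading genes of the cluster that holds most members.

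Sgcd, which codes for delta-sarcoglycan of the dystrophin complex, was the most abundant of the 12, at 1369 and 1126 CPM against 451 and 359 CPM, with log2 ratios of 1.60 and 1.65. It had a UMI in 52.5% and 45.8% of members and in 7.35% and 7.06% of nuclei with macrophage markers. Negr1, an adhesion protein of the immunoglobulin family, stood at 443 and 481 CPM against 166 and 152 CPM. Dchs2, a large cadherin, stood at 76.6 and 59.8 CPM against 11.5 and 13.9 CPM. Arhgap24, which turns off Rac, stood at 769 and 443 CPM against 274 and 164 CPM, and so differed between the libraries in both groups. All 12 were higher in members in each library, which follows from how they were ranked. Kirrel3 fell behind in control members within the clusters (-0.12), without Pcdh9 in the rule (-0.34) and after thinning (-0.27).

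On mouse genome build GRCm38, Nkain2 lies on chromosome 10 from 31689310 to 32890462 on the minus strand, and Sgcd on chromosome 11 from 46896253 to 47988969 on the minus strand. Among the panel genes, Rgs17 lies on chromosome 10 from 5825663 to 5922400 and Pcdh9 on chromosome 14 from 93013410 to 93890679, both on the minus strand. Pcdh9 spans 877 kb, against 96.7 kb for Rgs17.

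**Figure D3:**
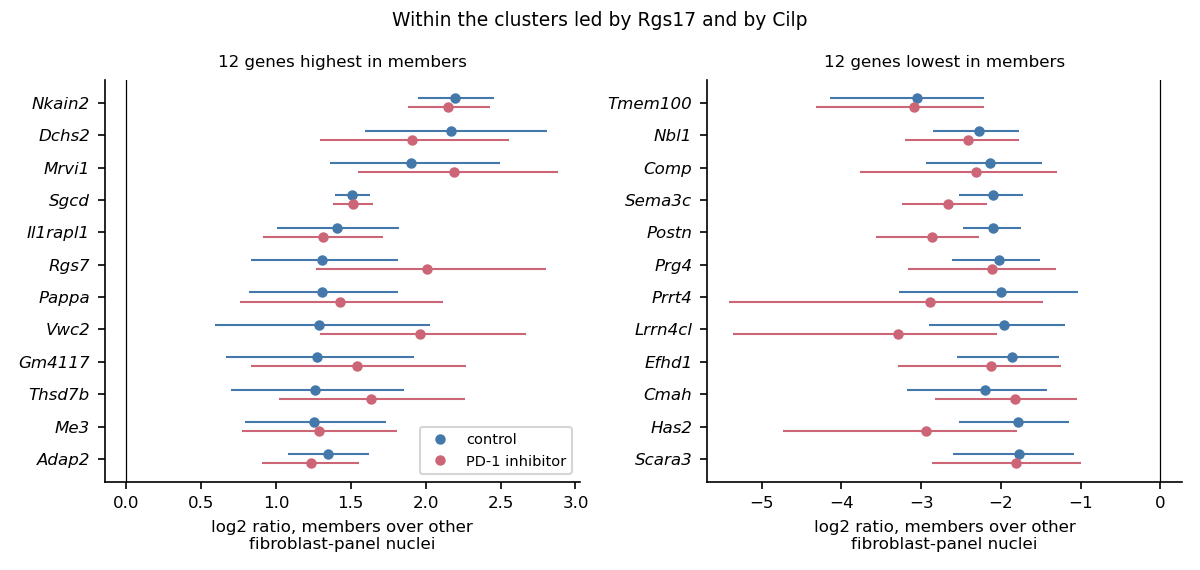
Log2 ratio of members over other fibroblast-panel nuclei for the 12 genes highest (left) and lowest (right) in members, in the control and the PD-1 inhibitor library, among nuclei of the clusters led by Rgs17 and by Cilp, with 95% conditional binomial intervals of counting error. Nkain2 stands at 2.20 and 2.15 and Tmem100 at -3.05 and -3.09. The genes were picked as the extremes of this same ratio in both libraries, so intervals away from 0 follow from the choice.

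Within the clusters led by Rgs17 and by Cilp, 82 of 10301 genes (0.796%) were over 2-fold higher in members in both libraries and 135 (1.31%) lower. Beside Nkain2, Dchs2, Sgcd and Thsd7b, the 12 highest there were Mrvi1, Il1rapl1, Rgs7, Pappa, Vwc2, Gm4117, Me3 and Adap2. Mrvi1, a substrate of the cyclic GMP kinase, stood at 89.2 and 87.5 CPM against 23.7 and 19.0 CPM. Pappa, a protease that frees insulin-like growth factors, stood at 85.7 and 61.7 CPM against 34.5 and 22.8 CPM. Rgs7, another regulator of G protein signals, stood at 89.2 and 61.7 CPM against 35.8 and 15.2 CPM.

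Several genes of the lists were also over 2-fold higher in members in both libraries, beside 0.789% of all genes higher and 1.84% lower. Of the proteoglycans, Gpc6, a glypican that holds growth factors at the cell surface, stood at 2196 and 1628 CPM against 939 and 661 CPM, and was the sole one of 14 that passed in either direction. Of 32 growth factor genes 2 passed downward and 3 upward: Angpt1, the ligand of the Tie2 receptor of vessels, at 303 and 250 CPM against 111 and 102 CPM, Igfbp3 at 141 and 218 CPM against 58.1 and 63.2 CPM, and Vegfd at 96.9 and 108 CPM against 43.4 and 38.4 CPM.

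Of 31 genes of G protein, natriuretic and cyclic GMP signalling, Rgs6 passed at 296 and 315 CPM against 118 and 91.0 CPM, and Rgs7 passed as well, both of the same family as Rgs17, while 2 genes passed downward. Of 27 ion channels and transporters 2 passed downward and 4 upward, of which Grik2 and Gria4 code for subunits of glutamate receptors and Slc1a3 for a glutamate transporter. Grik2 stood at 94.9 and 87.9 CPM against 40.9 and 33.4 CPM. Of 30 genes of the TGF-beta and BMP pathways, Bmper, a binder of BMPs, passed at 259 and 160 CPM against 103 and 75.0 CPM. Of 17 matricellular genes, Ccn5 passed at 140 and 170 CPM against 58.8 and 75.3 CPM, and 2 passed downward. Restricted to the 2 clusters, Gpc6, Angpt1 and Rgs7 still passed, but in the control library Igfbp3 (0.91), Vegfd (0.86), Rgs6 (0.94), Grik2 (0.89), Gria4 (0.80), Slc1a3 (0.79), Bmper (0.86) and Ccn5 (0.83) had log2 ratios under 1, which is less than 2-fold. The collagens, elastic fibre genes and other lists gave at most 1 such gene each.

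The genes lowest in members over all fibroblast-panel nuclei were Ren1, Gjb5, Ucp1, Mpzl2, Dmkn, Tmem100, Slurp1, Anxa8, Tspan8, Ackr2, Clca3a2 and Zfp57, and they had few UMIs in members. Ren1, the renin gene, had no UMI in members of either library, against 34.5 and 4.13 CPM in the other fibroblast-panel nuclei. Slurp1, a secreted epithelial protein, had 1 and 9 UMIs in members. Of the mesothelial markers 7 of 10 were over 2-fold lower in members in both libraries. These markers summed to 1738 and 2705 CPM in members and to 4393 and 5221 CPM in the other fibroblast-panel nuclei, and within the clusters led by Rgs17 and by Cilp none of 7 passed.

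Within those clusters the lowest genes were Tmem100, Nbl1, Comp, Sema3c, Postn, Prg4, Prrt4, Lrrn4cl, Efhd1, Cmah, Has2 and Scara3. Tmem100, a membrane protein known from BMP signalling in vessels, stood at 9.52 and 12.9 CPM in members against 81.9 and 116 CPM. Postn, the matrix protein periostin of activated fibroblasts, stood at 65.8 and 33.0 CPM against 283 and 244 CPM. Comp, a matrix protein of the thrombospondin family, stood at 17.3 and 10.04 CPM against 78.1 and 53.3 CPM, and Sema3c, a secreted semaphorin, at 54.5 and 47.3 CPM against 236 and 304 CPM.

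The matrix lists gave more genes within the clusters, where 1.31% of all genes were lower, than over all fibroblast-panel nuclei. Of 18 elastic fibre genes outside the rule 4 were over 2-fold lower in members in both libraries (Emilin2, Fbln2, Ltbp2 and Ltbp4) and none was higher. Of 16 matricellular genes 4 were lower (Ccn3, Postn, Thbs1 and Thbs4), of 25 matrix enzymes and inhibitors 3 (Loxl2, Pcolce2 and Timp2), and of 14 proteoglycans 2 (Aspn and Lum), with Gpc6 higher. Of 17 genes of the myofibroblast list 5 were lower (Comp, Ltbp2, Meox1, Postn and Thbs4) and 1, Myh11, was higher, and Comp, Ltbp2, Postn and Thbs4 also stand in the matrix lists or among the 12 lowest genes. The median of these 17 genes was -0.69 among control and -0.31 among PD-1 inhibitor nuclei. Over all fibroblast-panel nuclei, by contrast, none of the 17 myofibroblast genes passed in either direction, and of the elastic fibre genes 2 were lower, of the matricellular genes 2, of the matrix enzymes and inhibitors 1 and of the proteoglycans none. By construction the others within the clusters are mostly nuclei in which Cilp and Pi16 lead.

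Collagens I and III were lower in members by less than 2-fold. Col1a1, the alpha-1 chain of collagen I, stood at 764 and 709 CPM in members against 990 and 943 CPM in the other fibroblast-panel nuclei, and at 879 and 868 CPM against 1661 and 1649 CPM within the clusters. Col3a1 stood at 2407 and 2327 CPM against 2927 and 2859 CPM. Both are genes of the rule, as members of the fibroblast panel that both groups had to reach. The 4 fibrillar collagens outside the rule with enough UMIs had median log2 ratios of members over others of 0.35 and 0.39, and of -0.04 and 0.04 within the clusters, with none past 2-fold. Eln, which codes for elastin, stood higher in members, at 1369 and 1364 CPM against 950 and 907 CPM, and Lama2, a laminin chain of basement membranes, at 2456 and 1855 CPM against 1374 and 1043 CPM.

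Members differed among themselves with the number of panel UMIs. With 1 UMI of the Rgs17 panel, 46.6% of 146 control members and 46.1% of 115 PD-1 inhibitor members lay in the cluster led by Rgs17, and with 8 or more UMIs 81.8% of 314 and 81.4% of 161. The 12 genes highest in members are not in the rule, but they were picked in these same nuclei, so their sum is a description. They summed to 1700 and 1851 CPM in members with 1 panel UMI and to 2656 and 1994 CPM with 2 to 3. With 4 to 7 the sums were 3810 and 2890 CPM, and with 8 or more 4576 and 4235 CPM. Nkain2 alone went from 147 and 220 CPM to 571 and 488 CPM. Not all of the 12 rose. Kirrel3 went from 70.8 and 226 CPM to 21.0 and 44.6 CPM, and Cxcl1 from 100 to 9.57 CPM in PD-1 inhibitor members. The members with 1 panel UMI were shallower, at a median of 979 and 994 UMIs against 1513.5 and 1532 with 8 or more, and had 3794 and 3998 CPM of Dcn against 6025 and 6703 CPM. The part of depth in this order was not tested.

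Between the libraries, 814 of 8840 genes with at least 50 UMIs in members (9.21%) were over 1.5-fold higher in PD-1 inhibitor members and 554 (6.27%) over 1.5-fold lower. The interval of counting error stayed off 0 for 673 and 439 of them. Within the clusters led by Rgs17 and by Cilp, 552 of 7267 genes (7.6%) were higher and 507 (6.98%) lower. The median log2 ratio over all genes tested was -0.0023 in members.

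The 12 genes lowest in PD-1 inhibitor members were Fos, Egr1, Nr4a1, Gm47283, Ccn1, Junb, Dusp1, Trim14, Bank1, Zfp36, Runx1 and Nudt5. Fos, Egr1, Nr4a1, Ccn1, Junb, Dusp1 and Zfp36 are immediate early genes, which cells switch on within minutes of a stimulus. Fos, a subunit of the factor AP-1, had 272 UMIs in control members and 13 in PD-1 inhibitor members, 178 and 12.2 CPM, a log2 ratio of -3.82 (-4.80 to -3.07). It had a UMI in 10.2% of control members and in 0.940% of PD-1 inhibitor members. Egr1, a zinc finger factor, had 469 and 41 UMIs, 307 and 38.3 CPM (-2.99, -3.50 to -2.54), and was counted in 17.5% and 4.03% of members.

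These genes were lower in other nuclei of the PD-1 inhibitor library too. Fos gave -3.65 in the other fibroblast-panel nuclei, and its share of nuclei with macrophage markers went from 8.81% to 2.25%, so that under the PD-1 inhibitor members had no higher share than these nuclei. Egr1 was counted in 3.88% and 1.18% of those nuclei. Nr4a1, an orphan nuclear receptor, stood at 157 and 27.1 CPM in members (-2.51) and gave -1.73 in the other fibroblast-panel nuclei. Ccn1, a matricellular protein, stood at 338 and 82.3 CPM (-2.03 in members, -1.91 in the others), and Junb, another AP-1 subunit, at 205 and 53.3 CPM (-1.93 and -1.34).

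Dusp1, a phosphatase of MAP kinases, stood at 278 and 91.6 CPM in members, a log2 ratio of -1.59 (-1.93 to -1.28), against -0.93 (-1.10 to -0.77) in the other fibroblast-panel nuclei. Egr1 gave -1.88 (-2.12 to -1.64) there. The intervals of members and others thus did not overlap for Egr1, Nr4a1 or Dusp1, and they overlapped for Fos, Ccn1, Junb and Zfp36. The share of all genes with intervals apart was not counted. Single control members held up to 11 UMIs of Egr1, 12 of Nr4a1 and 9 of Dusp1, and the intervals do not cover such clumping. Whether these differences between groups would recur in other hearts could not be tested with 1 library per condition.

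Of the 18 immediate early genes with at least 50 UMIs in members, 10 were over 1.5-fold lower and none was higher (6.27% of all genes tested were lower). Their median log2 ratio was -0.66 in members and -0.38 in the other fibroblast-panel nuclei, and the list of 25 genes summed to 2791 and 1320 CPM in members. Within the clusters led by Rgs17 and by Cilp, 12 of 17 were lower (Btg2, Ccn1, Dusp1, Egr1, Fos, Ier2, Ier3, Jun, Junb, Klf4, Nr4a1 and Zfp36), with a median of -1.29 in members and -0.78 in the others, and the sum went from 2966 to 1257 CPM. Fos gave -4.43 and Egr1 -3.10 there. Fos lies on chromosome 12 from 85473890 to 85477273, and Junb on chromosome 8 from 84974484 to 84978718.

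**Figure D4:**
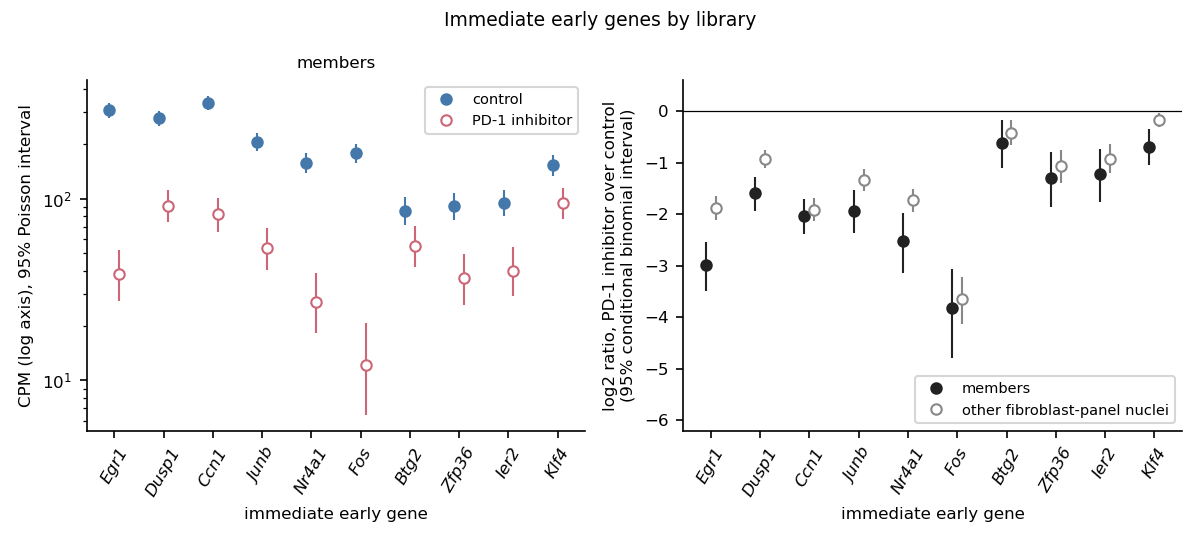
Left, level of 10 immediate early genes in members in CPM on a log axis, with 95% Poisson intervals, in the control and the PD-1 inhibitor library. Right, log2 ratio of PD-1 inhibitor over control in members and in other fibroblast-panel nuclei, with 95% conditional binomial intervals. The 10 genes are those over 1.5-fold lower in PD-1 inhibitor members, of 18 on the list with at least 50 UMIs. Their direction thus follows from the choice, and 1 of the 18 had a ratio above 0. The values shown for members run from -0.63 for Btg2 to -3.82 for Fos.

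Other genes among the 12 lowest were of other roles. Gm47283, a predicted gene that the annotation places on the Y chromosome, went from 145 to 26.2 CPM, a value given as uncertain since near-identical copies could share its reads. Runx1, a transcription factor of blood cells that activated fibroblasts also express, went from 62.2 to 25.2 CPM, and Bank1, a B cell gene, from 64.2 to 24.3 CPM. Both stood higher in all other nuclei, Runx1 at 134 and 75.6 CPM and Bank1 at 220 and 87.4 CPM. Within the clusters led by Rgs17 and by Cilp, Runx1 had 37 and 11 UMIs and Bank1 23 and 5 in members. The chemokine gene Cxcl1, one of the genes higher in members, fell from 66.1 to 28.0 CPM (-1.22, -1.88 to -0.64), and by 1.52 on the log2 scale in the other fibroblast-panel nuclei. Cfd, the adipocyte gene adipsin, had 54 and 2 UMIs in members (-3.93, -7.32 to -2.32), and stood at 60.9 and 3.48 CPM in all other nuclei.

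The 12 genes highest in PD-1 inhibitor members were Myom2, Fmod, Comp, Chrm2, Nppa, Mhrt, Nkain4, Npr3, Upk1b, Tmem151a, Cdkn1c and Tmem98. Myom2, a protein of the sarcomere, stood at 24.9 and 88.8 CPM, and Nppa, the atrial natriuretic peptide of heart muscle, at 37.3 and 103 CPM. Upk1b, a membrane protein of mesothelium, stood at 79.9 and 203 CPM. The markers of heart muscle cells moved with these genes, with 4 of 10 over 1.5-fold higher and a sum of 6166 and 9266 CPM, as did those of mesothelium, with 7 of 10 higher and a sum of 1738 and 2705 CPM. None of the defining markers on either list was at 0 in both libraries.

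Within the clusters led by Rgs17 and by Cilp, none of the 10 heart muscle markers was over 1.5-fold higher, Nppa gave -0.07 (-0.86 to 0.65), Comp -0.72 (-2.27 to 0.51) and Chrm2 -3.11 (-9.03 to -1.03). Thinned to 500 UMIs, Chrm2, Mhrt and Tmem151a were lower in PD-1 inhibitor members (-0.60, -0.41 and -0.84), and with nuclei of at most 5% mt- UMIs Nppa gave -0.0085. Mhrt is antisense to Myh7, and the reads of such a pair cannot be told apart if strand was not counted. Among the 12 highest genes there were Ankrd1, Atp5k, Hand2os1, Ism1, Sncaip, Aup1, Dcaf7, Sfrp2, Chchd10, Ndufb7 and Rps3. Ankrd1, a cardiac ankyrin repeat protein, stood at 39.8 and 100.4 CPM in members (1.33, 0.78 to 1.90) and gave 0.175 in the others. Hand2os1, an RNA antisense to Hand2, stood at 110 and 267 CPM, but its reads cannot be told apart from those of its neighbour if strand was not counted. Sfrp2, a secreted modulator of WNT ligands, stood at 60.6 and 129 CPM (1.09) and gave 1.26 in the others.

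Genes of oxidative phosphorylation stood higher in PD-1 inhibitor members. Of 37 nuclear-encoded genes with enough UMIs 12 were over 1.5-fold higher and none lower (9.21% of all genes tested were higher), with a median log2 ratio of 0.50 in members and 0.34 in the other fibroblast-panel nuclei. Atp5b, a subunit of the ATP synthase, stood at 307 and 440 CPM. Within the clusters 6 of 37 were higher (Atp5h, Cox8a, Ndufa2, Ndufa5, Ndufb3 and Sdhd), with a median of 0.34 in members and 0.29 in the others.

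Gene length moved with the ratio. The fifth of genes with the shortest span had a median log2 ratio of 0.15 in members and the fifth with the longest -0.11, and Spearman's rho over 8837 genes, which are not independent, was -0.21 in members and -0.37 in the other fibroblast-panel nuclei. The part of gene length in the oxidative phosphorylation list, or in the fall of Pcdh9, was not tested.

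Complement genes and genes of antigen presentation gave smaller values. C3, the central complement component, stood at 1038 CPM in control and 1346 CPM in PD-1 inhibitor members (0.38, 0.27 to 0.48), and at 812 and 907 CPM within the clusters. Of 16 complement and coagulation genes 2 were over 1.5-fold higher (C4b and Colec11) and 3 lower, C7 and Cfd among them, with a median of 0.30, and within the clusters none of 14 was higher and 2 were lower. B2m, the light chain of MHC class I, stood at 1034 and 1386 CPM (0.42, 0.32 to 0.53), and H2-D1 and H2-K1, of its heavy chains, gave 0.46 and 0.31. Of 23 interferon and antigen presentation genes 2 were higher and 1 lower, with a median of 0.11 in members and 0.20 in the other fibroblast-panel nuclei.

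Collagen I and III were nearly level between the libraries in members. Col1a1 gave -0.11 (-0.24 to 0.02), Col3a1 -0.05 (-0.12 to 0.02) and Col1a2 0.03 (-0.08 to 0.15). They are genes of the fibroblast panel that members had to reach, so the rule bears on these values. Over the whole libraries, with no choice of nuclei, all were higher for PD-1 inhibitor. Col1a1 gave 0.11 (0.05 to 0.17) there, Col3a1 0.18 (0.14 to 0.21) and Col1a2 0.13 (0.08 to 0.18). Of 4 fibrillar and 9 basement membrane and network collagens outside the rule none was past 1.5-fold, although Col15a1, at 1210 and 975 CPM (-0.31, -0.42 to -0.20), and Col8a1, at 806 and 619 CPM (-0.38, -0.52 to -0.24), were lower by more than counting error. Dcn stood at 5922 and 7044 CPM (0.25, 0.21 to 0.29). Of 18 elastic fibre genes Mfap2, a microfibril protein, was past 1.5-fold, at 32.1 and 59.8 CPM, and Eln gave -0.01 (-0.10 to 0.09).

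The receptors and targets of TGF-beta, on which the study centred, differed by less than 1.5-fold except Ccn2. Tgfbr1 stood at 298 and 277 CPM, Tgfbr2 at 185 and 177 CPM and Tgfbr3 at 411 and 373 CPM, and the interval of each ratio held 0. Fn1, which codes for fibronectin, stood at 154 and 168 CPM, and Acta2, the actin of smooth muscle and myofibroblasts, at 54.3 and 48.6 CPM. Ccn2, a target of TGF-beta and of mechanical load, was lower, at 363 and 213 CPM (-0.76, -0.996 to -0.54), and gave -0.42 (-0.68 to -0.17) within the clusters and -0.23 in the other fibroblast-panel nuclei. Of 27 genes of the TGF-beta and BMP pathways 2 were over 1.5-fold higher (Smad6 and Bmpr1b) and 1, Bmper, lower.

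Egfr, the receptor of epidermal growth factor, stood at 526 and 412 CPM (-0.35, -0.52 to -0.18), with -0.34 in the others, and the transcription factor Tcf12 at 516 and 441 CPM (-0.22, -0.39 to -0.06). Within the clusters Egfr gave -0.19 (-0.37 to -0.0059) and Tcf12 -0.15 (-0.35 to 0.05). Of the checkpoint genes, Pdcd1, which codes for PD-1, had 2 UMIs in control members and none in PD-1 inhibitor members, which allows up to 2.80 CPM, so that a difference was not detectable at this depth. Cd274, its ligand PD-L1, had 32 and 25 UMIs, 20.9 and 23.4 CPM.

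Among the lists by role, guidance and adhesion genes held the largest counts past 1.5-fold besides the early genes and oxidative phosphorylation. The lists differ in size, so these counts do not rank them by share. Of 15 genes of the myofibroblast list 3 were higher and 2 lower, and within the clusters 1 of 8 was higher and 1 lower. Of 23 guidance genes 6 were higher and 2 lower in PD-1 inhibitor members, and of 27 adhesion genes 6 were higher and 2 lower, beside 9.21% and 6.27% of all genes. Within the clusters the balance of the adhesion genes turned, with 2 of 22 higher and 4 lower. Plxna4, a semaphorin receptor, stood at 180 and 358 CPM (0.99, 0.76 to 1.22), and Sema6a at 154 and 86.0 CPM (-0.83, -1.203 to -0.49). Cdh11, a cadherin of mesenchymal cells, stood at 128 and 289 CPM (1.17, 0.91 to 1.44) over all members, but at 68.4 and 90.4 CPM (0.40, -0.10 to 0.90) within the clusters. Within the clusters 2 of 21 guidance genes were higher (Plxna4, and Sema3d, which was lower by 0.40 over all members after thinning) and 2 lower (Ntn4 and Sema6a).

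**Figure D5:**
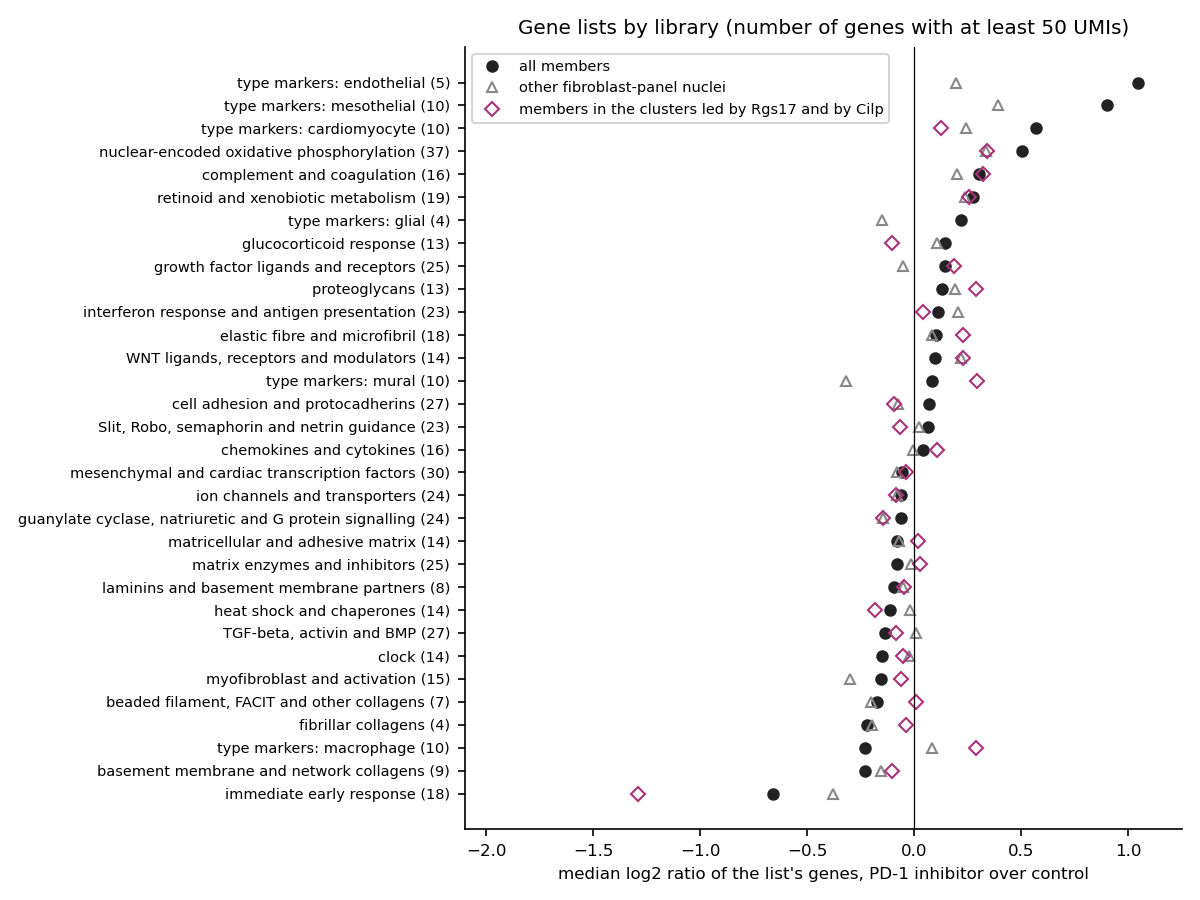
Median log2 ratio of PD-1 inhibitor over control for each gene list, over the genes with at least 50 UMIs (their number among all members in brackets), in all members, in other fibroblast-panel nuclei and in members of the clusters led by Rgs17 and by Cilp where at least 4 genes had enough UMIs. The immediate early list is lowest, at -0.66 in all members and -1.29 within the clusters, and the heart muscle markers go from 0.57 in all members to 0.12 within the clusters.

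All lists by role other than the immediate early and oxidative phosphorylation genes had medians between -0.23 and 0.30 in members. Of 25 growth factor genes 4 were higher and 1, Fgf7, lower (36.0 and 18.7 CPM), though Fgf7 was higher after thinning (0.54). Igfbp5, which binds insulin-like growth factors, stood at 698 and 1377 CPM (0.98, 0.86 to 1.09) over all members, but at 155 and 207 CPM within the clusters. The clock and glucocorticoid lists had as many higher as lower, 2 of 14 and 1 of 13 in each direction, and within the clusters none of 13 clock genes was higher and 1, Per1, was lower.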

How the data were processed

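Nuclei from mouse heart were profiled in 1 library per condition, control and PD-1 inhibitor. The authors deposited raw UMI counts per gene and nucleus, as a matrix per library with no further normalization. The submitters' processing notes name the build GRCm38 (mm10). The aligner, counter and annotation are not given in the sources used here, nor are cell type labels. Gene spans came from GENCODE vM21, which held 32445 of the 32589 gene identifiers.

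UMI counts were summed over the nuclei of a group in each library and divided by the group's total to give CPM. Log2 ratios had 0.5 UMI added to each sum. Members were compared with other fibroblast-panel nuclei in each library for genes with at least 50 UMIs in both groups and libraries together, at 2-fold in both libraries, and the libraries were compared within members at 1.5-fold for genes with at least 50 UMIs in members of both together. With 1 library per condition no test was made. Genes of the rule and mt- genes were left out of counts of genes.

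The members and the lists (26 by role, 9 of type markers) were chosen with earlier results of these data known. Genes were named by rule: those of the member rule, the 12 at each end of each comparison with at least 100 UMIs, the 3 most abundant and those past the fold in each list, and genes that the study is about, such as Tgfbr1 and Ccn2. The genes at the ends within clusters were added after the data had been seen.

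Nuclei were clustered with scanpy 1.11.5 and leidenalg 0.10.2 (2000 variable genes, 30 components, 15 neighbours, resolution 1, giving 21 clusters). Scrublet marked doublets in each library, and these nuclei were kept except in 1 alternative. Thinning drew 500 UMIs from each nucleus and left none out. Intervals and sums used numpy 2.4.6, scipy 1.17.1 and pandas 2.3.3 under Python 3.11.15. The ratios and counts were checked on simulated counts. Some genes that the naming rule gives are not reported here.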

Additional observations from a re-analysis of the deposited data

Results flagged for a closer look

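Of the named genes outside the member rule, 7 had intervals on opposite sides of 0 in members and in the other fibroblast-panel nuclei. These are intervals of the log2 ratio of PD-1 inhibitor over control. Genes that took opposite signs with an interval holding 0 are not counted here. Only named genes were read, and some of them were named because they passed the fold in members. The share over all genes tested was not counted, so the 7 cannot be set against a background. The difference was not tested, since each condition has 1 library. Adamts5, a protease of proteoglycans, gave -0.44 in members and 0.11 in the others, and -0.25 and 0.24 within the clusters led by Rgs17 and by Cilp. Unc5c, a netrin receptor, gave 0.67 and -0.56, and 0.24 and -0.34 within the clusters. Tagln, an actin-binding protein of smooth muscle, gave 1.23 and -1.23, and 2.02 and -1.45 within the clusters, where members had 5 and 13 UMIs of it. Thinned to 500 UMIs, Tagln turned to -0.53 in members.

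The calcium channel gene Cacna1c gave 0.75 and -0.39, and 0.14 and -0.74 within the clusters, and it turned to -0.19 in members after thinning. For the cytokine gene Il33 the values were 0.66 and -0.38, and 1.09 and 0.09 within the clusters, where both were above 0. Nppa gave 1.46 and -0.58, but -0.07 and -0.08 within the clusters, and the muscarinic receptor gene Chrm2 gave 1.52 and -0.38, but -3.11 and -1.22 there, and -0.60 in members after thinning.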

How the results depend on the processing

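No paired analysis was possible because each condition has 1 library. The ratio of member shares, PD-1 inhibitor over control, stayed under 1 in every setting that changes the choice of nuclei, from 0.793 to 0.899 of all nuclei and from 0.726 to 0.811 of fibroblast-panel nuclei. Its interval reached 1 only for the share of all nuclei without Pcdh9 in the rule.

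The member shares of all nuclei and of fibroblast-panel nuclei were 10.4% and 35.9% for control and 8.63% and 27.0% for PD-1 inhibitor nuclei with a fibroblast panel of at least 6 UMIs. They were 9.85% and 29.3%, and 7.92% and 21.3%, with a Rgs17 panel of at least 2. Without Pcdh9 they were 5.80% and 17.3%, and 5.22% and 14.0%. Within the clusters led by Rgs17 and by Cilp, a setting chosen after the data had been seen, they were 9.34% and 41.7%, and 7.41% and 31.8%. Thinned to 500 UMIs, members were 8.33% of control nuclei, 31.4% of control fibroblast-panel nuclei and 7.31% of PD-1 inhibitor nuclei. With at most 5% mt- UMIs they were 12.0% of control nuclei.

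Counts of genes moved with the depth asked for, and by under 1.5 times when doublets were left out, with a total free of mt- and ribosomal protein genes, with centring on the median, or with a mean over nuclei. With at least 20 UMIs, 182 genes were higher and 337 lower in members than in other fibroblast-panel nuclei, and 1453 were higher and 964 lower in PD-1 inhibitor members. With at least 200 UMIs these were 54, 96, 136 and 115. After thinning, 42 were higher in members, and 249 were higher and 281 lower in PD-1 inhibitor members. A Rgs17 panel of at least 2 gave 373 genes lower in members, and the clusters gave 135.

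Of 2348 values of named genes between libraries 22 changed sign against a call, as did 11 of 4731 between members and others and none of 1235 list medians. Between libraries these were, after thinning, Cacna1c (-0.19), Chrm2 (-0.60), Col23a1 (-0.0105), Fgf7 (0.54), Fzd1 (-0.58), Gpc3 (-0.28), Mhrt (-0.41), Nfil3 (-0.0194), Nr1d1 (0.36), Sema3d (-0.40), Tagln (-0.53), Thy1 (-1.78) and Tmem151a (-0.84). Within the clusters they were Cadm2 (-0.75), Chrm2 (-3.11), Comp (-0.72), Hspb1 (-0.19), Nppa (-0.0748) and Sema3c (-0.19). Without Pcdh9 they were Bmpr1b (-0.0238) and Cxcl13 (1.08), and with at most 5% mt- UMIs Nppa (-0.0085). Between members and others they were Kirrel3 in the control library (-0.34 without Pcdh9, -0.27 thinned, -0.12 in the clusters) and, in the clusters, Cd59a (0.0739), P2ry14 (2.31), Ucp1 (0.15) and Vtn (0.44) in the control library and Rgs4 (0.0783), Sema3e (0.33), Slurp1 (0.26) and Tmem151a (0.12) in the PD-1 inhibitor library. The cause was not tested.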

Other observations

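Single genes of the circadian clock differed between the libraries in members. Rora, a nuclear receptor that activates clock genes, stood at 1686 CPM in control and 1259 CPM in PD-1 inhibitor members, and Npas2, a partner of Bmal1, at 470 and 310 CPM. Nr1d2, a repressor of the clock, stood at 35.3 and 70.1 CPM, but at 28.6 and 41.6 CPM within the clusters led by Rgs17 and by Cilp, a log2 ratio of 0.55 (-0.23 to 1.31) whose interval holds 0. Rora gave -0.35 and Npas2 -0.44 there. The hours at which the hearts were taken are not given in the sources used here.

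Outside the clusters led by Rgs17 and by Cilp, members were most numerous in a cluster led by the mesothelial genes Bnc1 and Lrrn4, with 45 (3.94%) of control and 58 (7.79%) of PD-1 inhibitor members. In the members outside both fibroblast clusters the Rgs17 panel summed to 1728 and 1513 CPM, against 5638 and 5167 CPM in the members of the cluster led by Rgs17.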
